A study of Danio rerio with 4 samples.

Results

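The extracellular matrix genes and integrins described here were taken from a table of gene expression in livers of zebrafish larvae. The livers analysed came from larvae at 5 days post fertilisation (dpf) that carried Tg(fabp10:has.UHRF1-GFP), a transgene in which the hepatocyte promoter fabp10 drives human UHRF1 joined to GFP, and that the series text assigns to the high line. UHRF1 brings the maintenance DNA methyltransferase to newly copied DNA. The study set these livers against livers of larvae of the same age with Tg(fabp10:nls-mCherry), in which the same promoter drives a nuclear red fluorescent protein. Each group has 2 libraries by the labels. The table has a column for each UHRF1-high library, called A and B, and the mCherry libraries were not analysed here. No value below is therefore a change against mCherry livers, and no test between the groups could be made. The values below describe each gene in livers with high UHRF1, and the gap between A and B. The promoter is active in hepatocytes, whereas the RNA came from whole liver, which also holds other cells.

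The members are the genes whose symbol begins with one of a fixed set of stems, such as col followed by a digit, lam, fn1, itga, itgb, mmp, timp, lox, vtn or sparc, together with and1 to and4. There were 84 such genes among the 11021 of the table. The symbols of 78 members are current in the RefSeq gene table, and those of the other 6 were matched through an older name. The entries col4a3bp and col4a3bpa map to the same current gene, cert1a, which encodes a ceramide transfer protein and no collagen. With itgb1bp1, whose mammalian counterpart binds the inner tail of an integrin beta chain, they form a class of 3 members set apart as not matrix or integrin genes. None of the 3 was 2-fold apart. The gene itgb1bp1 had 17.4 in A and 23.3 in B, col4a3bp 2.26 in A and 1.79 in B, and col4a3bpa 1.62 in A and 1.06 in B, where the last pair have overlapping spans on chromosome 5 and may share reads. The rule also names the perlecan gene hspg2, which was not analysed here.

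Matrix proteins are secreted and form the fibres and sheets that cells rest on. Fibrillar collagens build rope-like fibres, while laminins, nidogens and network-forming collagens build basement membranes, the thin sheets under epithelia and around vessels and muscle fibres. Integrins are cell surface receptors made of an alpha and a beta chain that bind these proteins, and matrix metalloproteinases (MMPs) cut them. In liver, hepatocytes secrete soluble matrix proteins such as vitronectin into the plasma, and stellate cells and other mesenchymal cells are known as the main source of fibrillar collagen in mammals.

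Values are in the quantile-normalised unit of the authors, in which every library has nearly the same set of values and a value stands for a rank. The median over all genes was 4.36 in A and 4.41 in B, and sequencing depth is unknown. No source says if values were scaled to transcript length, so the order of different genes may partly follow their length. A gene set beside itself in A and B is free of this. Differences are given as log2(value + 1) in A minus that in B. On this scale 2-fold means a difference of 1, and low genes appear closer together than they are. With 1 group of 2 libraries there is no test, and the labels do not tell if A and B stem from separate clutches. The series text speaks of 2 batches and ties neither library to one, so the batch and the gap between A and B cannot be told apart.

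Most members were weakly expressed. A mean value of at least 1 was reached by 46 of 84 members (54.8%), against 76.1% of all genes, and among all genes of the library the median member lay at percentile 23.9 in A, against 30.6 in B. Only 10 members had a mean of at least 10 and 2 had a mean over 100, vtnb and vtna. These vitronectin genes made up 70.1% of the members' summed value in A and 53.8% in B. In A, 12 members shared the lowest value of that library, 0.0203, with 694 genes in all, and in B 7 members were listed at 0 along with 449 genes in all.

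Over all 84 members, 3 (3.57%) exceeded 2-fold towards A and 13 (15.5%) towards B. Among all 11021 genes these shares were 5.86% and 5.71%. The members at least 2-fold higher in A were fn1b, itgb1b.1 and itgb1b.2. The 13 higher in B were the type I collagen genes col1a1a, col1a1b and col1a2, the collagen genes col8a1a and col17a1a, sparc, postnb, fn1, timp2b and the actinodin genes and1, and2, and3 and and4. Of the 46 members that passed a filter at a mean of 1, 6.52% exceeded 2-fold towards A and 28.3% towards B, beside 7.07% and 6.83% of the 8386 genes above that level. The counts were 2 and 3 with 10 in place of 1 added to each value, and 7 of the 46 members had a value under 1 in A while none did in B.

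**Figure D1:**
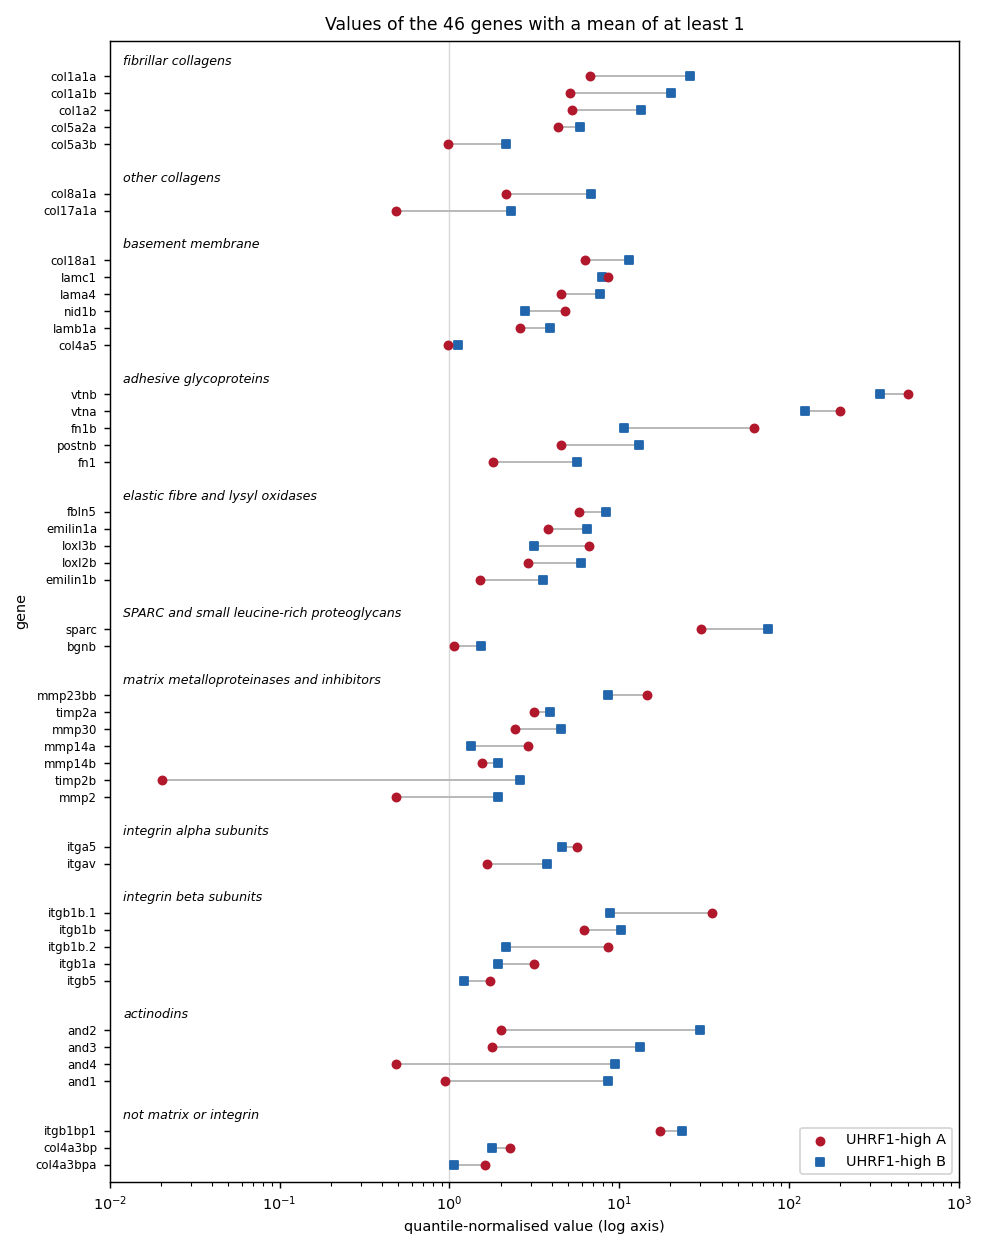
Values of the 46 matrix, integrin and other matched genes with a mean of at least 1 in UHRF1-high libraries A (circles) and B (squares), grouped by class, on a log axis of quantile-normalised values. The lines join the libraries of a gene. The vitronectin genes lie furthest right, at 502 and 199 in A, and the actinodin and type I collagen genes lie further right in B than in A.

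Every collagen gene whose mean reached 1 had the higher value in B. There were 20 collagen genes, of which 9 reached that mean, and 5 of the 9 were at least 2-fold higher in B. Of the 9, col4a5, col5a3b and col17a1a had values under 1 in A and reached the mean through B. Under the filter, col2a1a, col8a2, col9a2, col10a1, col11a1b, col15a1b and, barely, col27a1a were higher in A. The others under it, col11a1a, col11a2, col27a1b and col28a1a, were higher in B. The median difference of the 9 was -1.15. The summed value of the 20 genes was 35.3 in A and 92.6 in B. The fibrillar class, with 5 of 11 genes above the filter, had a median difference of -1.21, and -0.36 when the 6 low genes were included.

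Type I collagen, the main fibrillar collagen of skin, bone and scar tissue, had the 3 highest collagen values in B and by mean, while in A col18a1 lay between col1a1a and the other type I genes. Its alpha chain gene col1a1a (chromosome 3, 23512404 to 23528963 in the Zv9 build) was measured at 6.71 in A and 25.9 in B, a difference of -1.80. Its paralog col1a1b (chromosome 12, 3687418 to 3725217) had 5.15 in A and 20.2 in B, a difference of -1.79. The gene of the partner chain, col1a2 (chromosome 19, 41943856 to 41962985), had 5.24 in A and 13.4 in B, a difference of -1.21. All 3 chain genes thus lay higher in B, by ratios of B to A of 3.86, 3.92 and 2.56 for col1a1a, col1a1b and col1a2 on the values as deposited. In rank, col1a1a stood at 4570 of 11021 in A and 2005 in B.

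Type V collagen, which joins type I in mixed fibres, differed less. The gene col5a2a had 4.36 in A and 5.87 in B, and col5a3b had 0.976 in A and 2.16 in B. The measured genes of collagen types II, IX, X, XI and XXVII, which are known from cartilage, had means under 1. The type II gene col2a1a had 0.487 in A and 0.183 in B, col9a2 had 0.304 in A against a listing at 0 in B, and col10a1 had 0.0203 in A against a listing at 0 in B. The type XI genes col11a1a, col11a1b and col11a2 had values of at most 0.651 in A and 1.06 in B. The type XXVII genes col27a1a and col27a1b had 0.304 and 0.0203 in A, against 0.304 and 0.183 in B.

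Outside the fibrillar class, col8a1a and col17a1a were at least 2-fold higher in B. Type VIII collagen is a short-chain network collagen of vessels and of the eye, and col8a1a had 2.14 in A and 6.77 in B, a difference of -1.31. Type XVII collagen is a transmembrane protein that anchors basal skin cells to their basement membrane, and col17a1a had 0.487 in A and 2.30 in B, a difference of -1.15. The other 4 of the class, col8a2, col28a1a, col9a2 and col10a1, had values under 0.5 in both libraries.

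Basement membrane genes differed less than fibrillar collagens between the libraries, and none of the 6 above the filter was 2-fold apart. Their median difference was -0.27 and turned to 0.02 when all 12 genes were included. The laminin gamma chain gene lamc1, whose product is part of most laminins, had 8.59 in A and 7.94 in B, or 8.26 ± 0.462 (mean ± SD, n = 2). The alpha chain gene lama4, known from vessel walls, had 4.55 in A and 7.69 in B, and the beta chain gene lamb1a had 2.59 in A and 3.89 in B. These genes encode a chain of each of the kinds that a laminin trimer needs.

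The other laminin genes were low in both libraries. The alpha chain genes lama5 and lama1 had 0.487 and 0.0203 in A, against 0.305 and 0.0609 in B. The beta chain genes lamb1b, lamb4 and lamb2 had 0.651, 0.304 and 0.0203 in A, against 0.426, 0.183 and 0.183 in B. All 5 lay under the filter and under the value of lamb1a in the same library. The gene col18a1, whose product is a basement membrane collagen and the source of the fragment endostatin, had 6.27 in A and 11.5 in B, a difference of -0.78. The network collagen gene col4a5 had 0.976 in A and 1.12 in B, and col15a1b had 0.518 in A and 0.305 in B. The nidogen gene nid1b, whose product links laminin to type IV collagen, had 4.77 in A and 2.77 in B, but the table gives it a span of only 651 bases on chromosome 11.

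The adhesive glycoproteins held the highest values and went in both directions. Vitronectin is a plasma protein made by hepatocytes that binds integrins. The gene vtnb (chromosome 21, 37902358 to 37915908) had 502 in A and 344 in B, or 423 ± 112 (SD, n = 2), ranks 234 and 304. Its paralog vtna (chromosome 15, 27551027 to 27557838) had 199 in A and 123 in B, or 161 ± 53.7. Both were higher in A by less than 2-fold, with differences of 0.55 for vtnb and 0.69 for vtna.

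The fibronectin paralogs lay apart in opposite directions. Fibronectin is an adhesive protein that circulates in plasma and is also laid down as fibrils. The gene fn1b (chromosome 1, 4393275 to 4432226) had 62.0 in A and 10.6 in B, a difference of 2.44, the largest towards A among the members. The gene fn1 (chromosome 9, 15639062 to 15700894), whose current symbol is fn1a, had 1.81 in A and 5.61 in B, a difference of -1.23. In rank, fn1b stood at 1058 in A and 3550.5 in B, where a tied rank is the mean of the tied places, and fn1 at 7302 in A and 4970 in B.

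Periostin, a matrix protein of periosteum, heart valves and healing tissue, had its gene postnb at 4.55 in A and 13.1 in B, a difference of -1.34. The thrombospondin and tenascin genes were low. The genes thbs4b, thbs3a and thbs3b had 0.304, 0.833 and 0.304 in A, against 1.12, 0.426 and 0.0609 in B, and tnc had 0.183 in A and 0.304 in B. The class as a whole, with 5 of 9 genes above the filter, had a median difference of 0.55, set by vtnb.

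**Figure D2:**
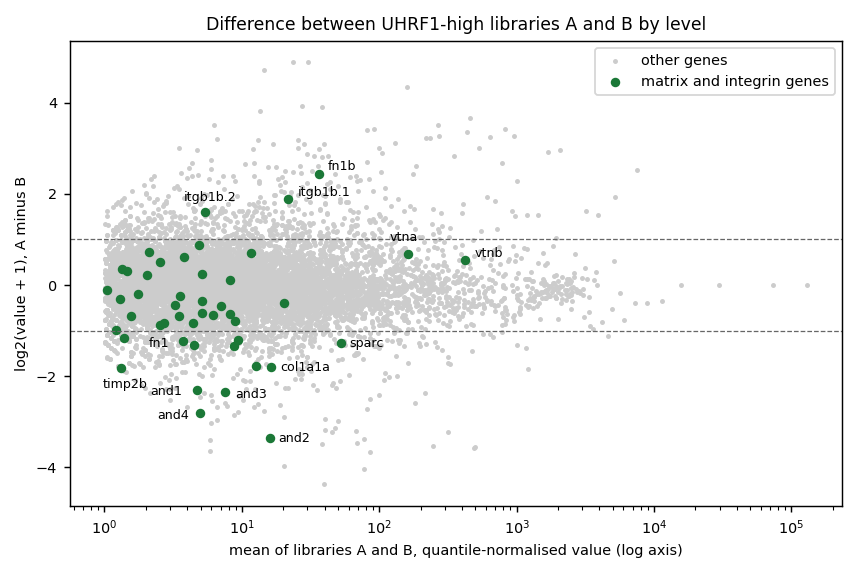
Difference between UHRF1-high libraries A and B in log2(value + 1) against the mean value of each of the 8386 genes whose mean reached 1, with the 46 matched genes in green and dashed lines at 2-fold. The gene fn1b lies highest of the matched genes at 2.44 and and2 lowest at -3.36, and the vitronectin genes lie inside the dashed lines.

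Proteins of elastic fibres and the enzymes that cross-link collagen were expressed at low to intermediate values. No gene of this class was 2-fold apart on the log2(value + 1) scale. The gene fbln5, whose product assembles elastic fibres, had 5.81 in A and 8.34 in B. The elastic fibre glycoprotein genes emilin1a and emilin1b had 3.82 and 1.51 in A, against 6.42 and 3.57 in B. The lysyl oxidase genes, whose products cross-link collagen and elastin, did not share a direction. The gene loxl3b had 6.64 in A and 3.14 in B, a difference of 0.88, while loxl2b had 2.88 in A and 5.92 in B, a difference of -0.83. The genes loxl1 and loxl2a had 1.22 and 0.376 in A, against 0.773 and 1.47 in B, and lox itself was near the lowest values, at 0.0203 in A and 0.0609 in B. The fibrillin gene fbn2b had 0.609 in A and 0.549 in B, and the fibulin gene fbln1 had 0.183 in A and 0.304 in B.

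The gene sparc, whose product binds collagen and is secreted by bone, skin and mesenchymal cells, came next to the vitronectin genes by mean value among the members. On chromosome 14 (26948450 to 26966392), it had 30.3 in A and 74.6 in B, or 52.5 ± 31.4 (SD, n = 2), a difference of -1.27. It stood at rank 1788.5 in A and 930 in B. The small leucine-rich proteoglycans, which bind collagen fibrils and set their spacing, were low. The biglycan gene bgnb had 1.06 in A and 1.53 in B, the decorin gene dcn 0.651 in A and 0.630 in B, and the lumican gene lum 0.487 in A and 0.305 in B. The SPARC-like gene sparcl1 went the other way from sparc, with 0.833 in A and 0.0609 in B, both under the filter.

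Among the proteases and their inhibitors, mmp23bb had the highest values, 14.5 in A and 8.61 in B. The membrane-bound enzyme genes mmp14a and mmp14b, whose mammalian counterpart activates MMP2, had 2.88 and 1.55 in A, against 1.34 and 1.94 in B. The gelatinase gene mmp2 had 0.487 in A and 1.94 in B, a difference of -0.98, and the gelatinase gene mmp9 had 0.833 in A and 1.06 in B. The gene mmp30 had 2.44 in A and 4.52 in B, and the collagenase gene mmp13a had 0.183 in A and 0.0609 in B. No MMP gene was 2-fold apart on this scale.

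The inhibitor genes timp2a and timp2b encode relatives of TIMP2, a protein that blocks MMPs. The gene timp2a was nearly level, with 3.16 in A and 3.89 in B. The gene timp2b was at the lowest value of library A, 0.0203, and at 2.60 in B. Its difference of -1.82 depends on the number added before taking the log, with -4.49 for 0.1 and -0.33 for 10. The class median was -0.23, and it was 0.69 when a mean of 10 was required, where mmp23bb was the class's remaining gene.

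Integrin genes were few at substantial levels, with 7 of 15 above the filter, and 5 of these 7 were higher in A. Of all genes above the filter, 51.0% were higher in B. The beta chain encoded by the itgb1 genes pairs with many alpha chains and takes part in binding collagen, laminin and fibronectin. The gene itgb1b.1 (chromosome 2, 43687881 to 43704023) had 34.9 in A and 8.77 in B, a difference of 1.88. Its neighbour itgb1b.2 (43670253 to 43684546), whose span ends 3334 bases before that of itgb1b.1, had 8.63 in A and 2.16 in B, a difference of 1.61. The ratio of A to B was 3.98 for itgb1b.1 and 3.997 for itgb1b.2. Both were thus higher in A by nearly the same ratio. How reads that fit several itgb1 copies were counted is not given in the sources used here, so the split between these neighbours is uncertain.

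The other itgb1 copies differed less and not in 1 direction. The gene itgb1b, which lies elsewhere on chromosome 2 (46095873 to 46102453), had 6.18 in A and 10.2 in B, a difference of -0.64, and itgb1a on chromosome 24 had 3.16 in A and 1.94 in B. The gene itgb5, whose product pairs with the alpha v chain in vitronectin receptors, had 1.72 in A and 1.21 in B. The remaining genes of the beta class lay under the filter. Of these, itgb3b and itgb4 had 0.0203 and 0.183 in A, with 0.183 for itgb3b and a listing at 0 for itgb4 in B. The other, itgbl1, named for its likeness to integrin beta chains and counted with the integrin genes by its symbol, had 0.183 in A and 1.06 in B.

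Of the alpha chain genes, itga5 and itgav passed the filter. The product of itga5 forms the classical fibronectin receptor with the beta chain of itgb1, and the gene had 5.61 in A and 4.61 in B, or 5.11 ± 0.707 (SD, n = 2). The gene itgav, for the alpha v chain, had 1.67 in A and 3.73 in B, a difference of -0.83. The genes itga3b and itga6b, whose products are known as laminin receptor chains, had 0.304 and 0.183 in A, with a listing at 0 for itga3b and 0.0609 for itga6b in B. The genes itga2b, itga8 and itga11a were at 0.0203 in A and listed at 0 in B. The platelet and thrombocyte chain gene itga2b is thus among the members with the lowest values in both libraries.

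Actinodins are structural proteins of the actinotrichia, the fibres that stiffen the fin fold of fish. On the log2(value + 1) scale they gave the 4 largest differences towards B among the members. On the values as deposited, timp2b and col11a2, both at the lowest value of A, had larger ratios of B to A. They were 128 and 24.0, against 19.4 for and4, the highest of the actinodins. The gene and2 (chromosome 2, 31480028 to 31484515) had 2.01 in A and 29.9 in B, a difference of -3.36. The gene and3 (chromosome 10) had 1.79 in A and 13.2 in B, a difference of -2.35, and and4 (chromosome 14) had 0.487 in A and 9.45 in B, a difference of -2.81. The gene and1 (chromosome 24) had 0.935 in A and 8.53 in B, a difference of -2.30. All 4 lay on different chromosomes and all 4 were higher in B, with a summed value of 5.22 in A and 61.1 in B. Without these 4 genes the members at least 2-fold higher in B numbered 9, and the median difference over members above the filter was -0.42 in place of -0.54.

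**Figure D3:**
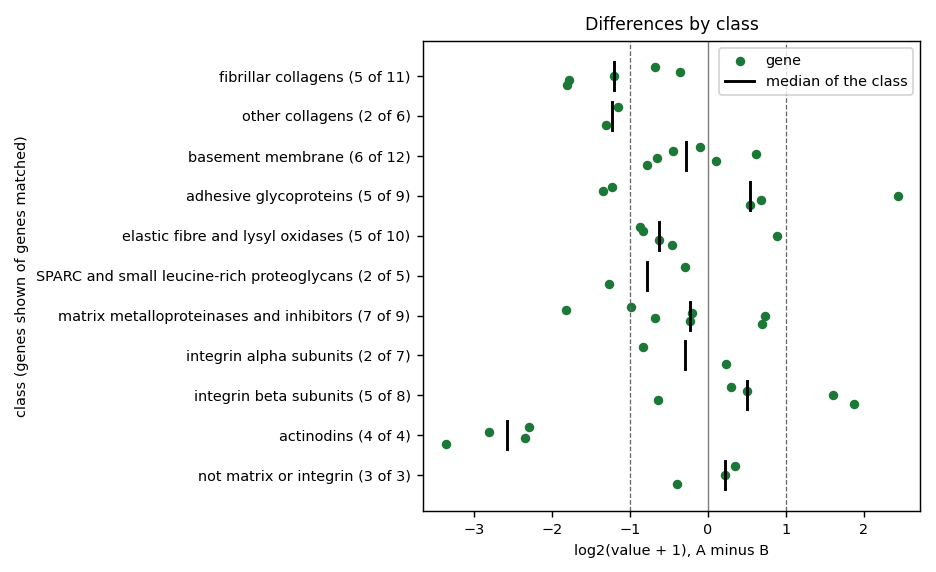
Difference in log2(value + 1), A minus B, of the members whose mean reached 1, by class, with the class median as a black bar and dashed lines at 2-fold. The classes differ in sign, with medians of -2.58 for actinodins, -1.21 for fibrillar collagens and 0.50 for integrin beta chains.

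Marker genes of cells other than hepatocytes also differed between A and B, none of them a member. Of all genes above the filter, 7.07% were at least 2-fold higher in A and 6.83% in B. As for the liver label, 31 hepatocyte markers were measured, whose median percentile was 98.4 in A and 98.1 in B, of which 13 exceeded 2-fold towards A and none towards B. Skeletal muscle markers had 26 of 27 genes above the filter at least 2-fold higher in B, and their sum was 609 in A and 4958 in B. Skin epithelium markers had 11 of 18 at least 2-fold higher in B and a sum of 579 in A and 1194 in B. The basal keratin gene krt5 in this list had 24.1 in A and 97.4 in B. The list's highest gene, zgc:109868 (now krt92), had 183 in A and 158 in B, and krt17 had 15.2 in A and 12.7 in B. The basal marker tp63 lay under the filter, at 0.487 in A and 0.609 in B. Exocrine pancreas markers had 13 of 15 at least 2-fold higher in A and 1 in B, with a sum of 11645 in A and 1355 in B.

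Above the filter, lists of mesenchymal, vascular, blood and biliary cells had medians nearer to 0 than the -3.20 of muscle and the -1.17 of skin. The median was -1.11 for cartilage and notochord, close to that of skin, and -0.95 for macrophages and neutrophils. It was -0.71 for stellate cells and fibroblasts, -0.43 for endothelium and -0.04 for biliary markers, which was 0.00015 without a filter. The order depended on the filter. With a mean of at least 10 required, the median was -1.66 for macrophages and neutrophils, -1.01 for skin and -0.92 for stellate cells and fibroblasts. The middle gene among the biliary markers that reached that mean was krt8, with a difference of -1.32. Those of cartilage and notochord were zgc:77517 and sox9b, with differences of -2.26 and -1.38. The middle one of endothelium was fli1a, with -0.10. Stellate cell and fibroblast markers had 5 of 16 genes at least 2-fold higher in B and a sum of 93.2 in A and 180.5 in B, with pmp22a, tpm1 and hand2 highest. The list's gene desma, which the muscle list also holds, had 1.62 in A and 17.1 in B. The mesenchymal receptor gene pdgfrb had 1.36 in A and 3.92 in B, while lrata, for an enzyme that stores retinol in stellate cells, had 2.88 in A and 1.26 in B. The genes foxf2a and rgs5a were also higher in A, at 4.36 and 2.88 in A, against 3.45 and 2.75 in B. Cartilage and notochord markers had 3 of 6 at least 2-fold higher in B and a sum of 30.7 in A and 83.1 in B. Much of that gap lay in zgc:77517 (now krt18b), with 6.41 in A and 34.6 in B, and in sox9b. The gene sox9b, which the biliary list also holds, had 8.59 in A and 24.0 in B. Of the 6, sox5 was higher in A, at 1.83 in A and 0.976 in B. Under the filter, sox6 had 1.69 in A and 0.0609 in B, a difference of 1.34 and the largest towards A in the list. Also under it, sox9a had 0.304 in both libraries, and runx2b had 0.0203 in A and 0.0609 in B. The gene shha was at 0.0203 in A and listed at 0 in B. Endothelium markers had 4 of 16 at least 2-fold higher in B, with a sum of 85.9 in A and 135 in B. Macrophage and neutrophil markers had 8 of 16, with a sum of 105 in A and 179 in B. Biliary markers had 4 of 19 at least 2-fold higher in B and 1 in A, with a sum of 1079 in A and 2478 in B. Most of both sums came from the keratin genes krt8 and krt18, at 577 and 418 in A, against 1444 and 926 in B. The part of any of these cells in the collagen, sparc, periostin and actinodin values was not tested, and in such bulk RNA a different number of cells of a type and a different amount of RNA per cell cannot be told apart.

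Above the filter, genes that make collagen had a smaller median difference than the collagens. Of 26 measured genes of collagen synthesis and cross-linking, 20 were above the filter. Of these, 2 (10%) exceeded 2-fold towards B and none towards A. Their median difference was -0.21, against -1.15 for the collagens, where col4a5, col5a3b and col17a1a reached the mean through B. Without a filter it was -0.16, against -0.36 for the fibrillar class and -0.16 for the class with col8a1a and col17a1a. The highest were ppib, a prolyl isomerase of the collagen-folding machinery, with 1186 in A and 1335 in B, si:ch211-237l4.5 (now pcolcea), an enhancer of procollagen cleavage, with 23.7 in A and 76.2 in B, and p4hb, the protein disulphide isomerase that is also a subunit of prolyl hydroxylase, with 62.4 in A and 34.0 in B. The second gene of the list over 2-fold was pcolce2b, with 3.55 in A and 9.57 in B. The collagen chaperone gene serpinh1b had 4.89 in A and 2.98 in B, opposite in direction to the collagens above the filter. Its paralog zgc:171630 (now serpinh1a) had 4.74 in A and 4.47 in B. The gene plod2, for a collagen lysyl hydroxylase, had 0.609 in A and 2.06 in B.

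Of 37 measured other matrix and proteoglycan genes outside the rule, 18 were above the filter. Of these, 3 (16.7%) were at least 2-fold higher in B and 1 (5.56%) in A. Their median difference was -0.34, and it was 0.19 when a mean of 10 was required. The cell surface proteoglycan genes sdc4 and sdc2 led them, with 79.0 and 51.2 in A, against 108 and 28.5 in B. The gene mfap4, which came next and also stands in the macrophage list, had 5.83 in A and 8.98 in B. The cartilage matrix gene matn1, which the cartilage and notochord list also holds and counts as 2-fold higher in B, had 1.62 in A and 7.69 in B.

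Inside the cell, integrins connect to actin through adapter proteins. Of 38 measured focal adhesion and associated genes, 30 passed the filter, with a median difference of -0.15. Of these, 2 (6.67%) were at least 2-fold higher in B and 1 (3.33%) in A. These shares were not above the 6.83% and 7.07% of all genes above the filter. The actin cross-linker gene actn4 had 127 in A and 88.4 in B, the tetraspanin gene cd9b 55.0 in A and 144 in B, and the small GTPase gene rhoab 43.6 in A and 96.3 in B. The talin gene tln1 and the kinase gene ilk, whose products act at the integrin tail, were nearly level, with 5.51 and 10.04 in A, against 5.43 and 8.77 in B. The alpha-parvin gene parvaa had 4.12 in A and 0.447 in B.

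The TGF-beta pathway, a known inducer of matrix genes, had 19 measured genes and 12 above the filter, with a median difference of -0.20. Of the 12, 3 (25%) were at least 2-fold higher in B and 1 (8.33%) in A. The receptor genes pointed both ways, with tgfbr2 at 6.997 in A and 15.98 in B and tgfbr1a at 9.30 in A and 2.98 in B. The ligand gene tgfb3 was level at 9.75 in A and 9.30 in B. ADAM and ADAMTS proteases had 8 measured genes, 5 above the filter and 1 of these 5 (20%) at least 2-fold higher in B. Their median difference was -0.33, a value that was 0.04 without a filter. Their highest genes were adam10b (18.4 in A, 23.4 in B), adam10a (12.9 in A, 16.6 in B) and adam17a (4.18 in A, 2.60 in B).

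**Figure D4:**
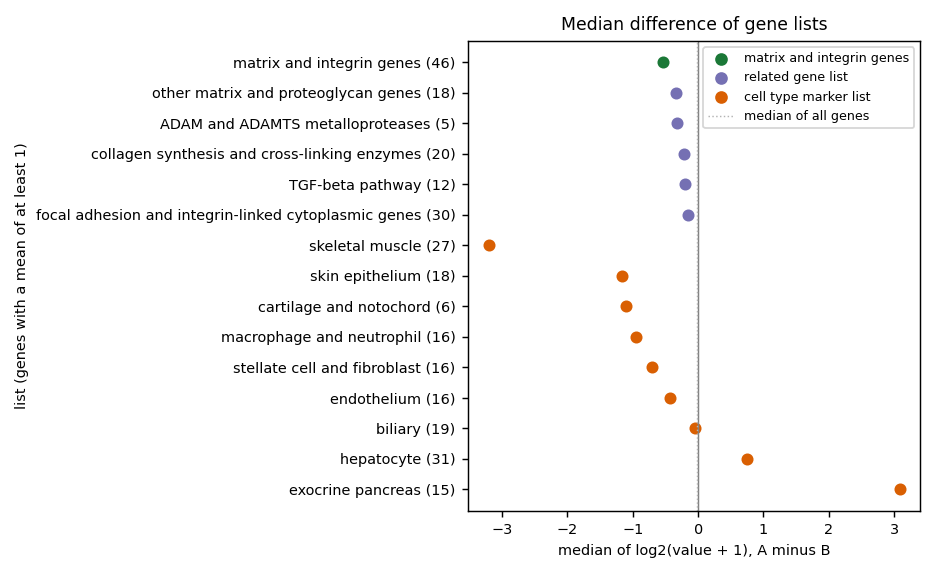
Median difference in log2(value + 1), A minus B, of the members and of each related gene list and cell type marker list, with the number of genes with a mean of at least 1 in parentheses. The members lie at -0.54, the related lists between -0.34 and -0.15, and the marker lists between -3.20 for skeletal muscle and 3.09 for exocrine pancreas.

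Across the 46 members above the filter the values in A and B had a Spearman correlation of 0.594, against 0.908 across all 8386 such genes. These are descriptions across genes, which share both libraries and are not independent, and members cover a narrower range of values than all genes. Of the 46, 16 were at least 2-fold apart in either direction (34.8%), against 13.9% of all genes above the filter. The level of 30 members was within 2-fold on the log2(value + 1) scale. Some of these, such as mmp2 and loxl3b, were over 2-fold apart on the values as deposited.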

How the data were processed

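Polyadenylated RNA of 5 dpf zebrafish livers was sequenced, per the labels' protocols, whereas the series text speaks of small RNA; the rows of the table carry gene symbols, liver messenger RNAs such as apoa1b and apoa2 among them. The authors deposited signal values after quantile normalisation, which the name of the table states; neither the unit before that step nor the meaning of mult in the column names is stated. The submitters' processing notes name the Zv9 (danRer7) build and CASAVA 1.7. The counting method, strand setting, annotation and gene filter are not stated there. Columns were matched to UHRF1-high samples A and B by title. The planned limma test against the mCherry group was not run, since no column of that group was analysed here. Starts are counted from 1.

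Differences are log2(value + 1), A minus B, with 2-fold meaning 1 on this scale and a filter at a mean value of 1 where stated (Python 3.11.15, pandas 2.3.3, NumPy 2.4.6). The calculation was run on simulated data with fixed shifts and no noise, and low genes were not shifted. That checks the code and says nothing of low values or of the spread between libraries. Genes were named by rule: the 4 highest of each class, every member at least 2-fold apart, paralog pairs with a member of mean 10 or more, and the 3 highest of each pathway list. Further genes were named after their values were seen. There were 5 pathway and 9 marker lists. The members and lists were chosen with earlier results of these data known. Alternatives were pseudocounts of 0.1 and 10, no filter or a mean of 10, division by the library median, and member sets.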

Additional observations from a re-analysis of the deposited data

How the results depend on the processing

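The counts of members at least 2-fold higher, 3 in A and 13 in B, were most sensitive to the pseudocount. With a pseudocount of 0.1 there were 5 in A and 18 in B. With a pseudocount of 10 there were 2 in A and 3 in B, and the median difference was -0.20. Without a filter the median was -0.12. Among the 10 members with a mean of at least 10, 4 were 2-fold higher in B and the median turned to 0.072. Leaving out the 16 members whose span overlaps another gene left 1 in A and 12 in B, with a median difference of -0.65. That alternative was chosen after seeing the data. Most of the overlapping spans reach across many genes, and 3 members overlap a gene whose span is under 100000 bases. The median percentile of the members was 27.3 over both libraries and 33.7 among genes above the filter. List medians that turned without a filter were basement membrane (0.023), SPARC and proteoglycans (0.018), integrin alpha chains (0.029), ADAM proteases (0.041) and biliary markers (0.00015). With a mean of at least 10, those that turned were the 3 members set apart as not matrix or integrin genes (-0.40), MMPs and TIMPs (0.69) and other matrix genes (0.19). These filters change which genes enter. Of 138 alternatives for single members, 18 moved by more than the gene's SD. Neither a pseudocount nor division by library medians this close can turn the sign of a 2-fold difference, so they say nothing of its stability. Leaving out a library leaves no difference between A and B. Of the 84 members, 40 had a value of at least 1 in A and 51 in B. No paired analysis was possible because only UHRF1-high libraries were analysed. Depth is unknown, so no counting interval can be given for low values.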
